A study of Homo sapiens with 18 samples.

Results

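Interferon-stimulated genes are the genes that cells switch on in response to interferons, the secreted proteins that warn tissue of infection. The set described here was a list of 39 such genes, of which 38 were measured, out of 19774 measured genes in all; STAT2 was not analysed here. The members were taken by name, and for each the brightest probe set on average over the panel was used, among those annotated to that gene alone. No measured value decided which genes were on the list, but the list was drawn up with earlier results of these data known.

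Type I and type III interferons bind receptors at the cell surface, and the receptors' JAK kinases activate a complex that contains STAT2 and IRF9 and binds the interferon-stimulated response element, a short repeat in the promoters of the responding genes. Interferon gamma acts at a different element, the gamma-activated site, and induces IRF1. The proteins made from these genes degrade viral RNA, block translation or virus release, and present antigen; some tumour cells express them in culture with no interferon added.

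Total RNA of 18 established cell lines labelled as colorectal cancer (CRC) was biotin-labelled and hybridised to whole-transcriptome microarrays, 1 array per line. The series concerns molecular subtypes of CRC in laboratory models, but the labels used here give no subtype. The labels name no genotype and no treatment, and none mentions added interferon. They differ in the culture medium: CAR1, CL40, HT55, HUTU80, LS180, OUMS23, RKO, SW1463, SW48 and SW948 were grown in DMEM/F-12, and COLO320HSR, HCT116, KM12, LS513, MDST8, NCIH716, RCM1 and SNUC1 in RPMI 1640, both with fetal bovine serum, penicillin and streptomycin and the RPMI medium also with added glucose and pyruvate. With a single array per line, a difference between lines has no replicate error and was not tested, and the small number of arrays limits the precision.

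Values are log2 intensities, so that 1 unit is a 2-fold difference in signal. They ran from 2.31 to 13.71, and the medians of the arrays lay between 3.65 and 3.69. A level of 4.28 was taken as background, the 95th percentile of 97 probe sets of 63 genes restricted to tissues other than the colon. Values at or under it are read as not detected, and their order carries no meaning. Between 10106 and 10683 genes exceeded it in a given line, and 13981 did so in at least 1 line. The label was checked against 9 markers of colon epithelium, such as LGALS4, VIL1 and KRT20. Their median deviation from the panel mean ran from −4.08 in HUTU80, with COLO320HSR, RKO and MDST8 at −4.06, −4.04 and −3.86, to 2.80 in CL40. In those 4 low lines VIL1 was between 3.21 and 3.41, not above background, against 10.98 in CL40 and 11.40 in RCM1. Not every marker was low there: CDX2 was highest of all lines in COLO320HSR (11.44), and KRT18 was 10.41 in RKO and 9.88 in MDST8. Of 12 measured leukocyte markers 9 were at background in every line. The exceptions were PTPRC in SW48 (6.68) and COLO320HSR (6.40), CD68 in RKO (7.03) and CD79A, which reached 4.40.

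The sequence that links many of these genes was visible in their promoters. RefSeq promoters (build GRCh38.p14, the 250 bases before each start) matched 30 of the 38 measured members. The core of the response element, GAAANNGAAA or its reverse complement TTTCNNTTTC, was found in 20 of them (66.7%), against 3.72% of the promoters of 27048 genes. It was found at least 2 times, overlaps counted, in 11 members and in 0.277% of all genes. The gamma-activated core, TTCNNNGAA, whose reverse complement has the same letters, was found in 11 of the 30 (36.7%) against 8.09% of all. The 10 stretches below lie before the start of members whose levels differed in different ways across the panel. They are written 5′ to 3′ on the strand of the gene, with the matched core in capitals.
ISG15, chr1:1013380-1013409, plus strand: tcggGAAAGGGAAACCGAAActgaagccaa
IFIT1, chr10:89392510-89392539, plus strand: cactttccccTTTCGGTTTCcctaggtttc
IFIT3, chr10:89332468-89332497, plus strand: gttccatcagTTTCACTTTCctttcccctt
DDX60, chr4:168318786-168318815, minus strand: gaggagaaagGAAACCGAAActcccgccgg
EPSTI1, chr13:42992272-42992301, minus strand: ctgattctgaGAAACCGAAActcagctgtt
IFI44L, chr1:78620365-78620394, plus strand: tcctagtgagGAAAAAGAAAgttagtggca
RSAD2, chr2:6877622-6877651, plus strand: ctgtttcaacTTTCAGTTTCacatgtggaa
BST2, chr19:17405735-17405764, minus strand: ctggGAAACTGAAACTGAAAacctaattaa
IFI6, chr1:27672266-27672295, minus strand: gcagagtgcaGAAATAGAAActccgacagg
IFIT5, chr10:89414539-89414567, plus strand: ttacgtttagTTTCGATTTCttaagtttc
ISG15, IFIT1, IFIT3 and DDX60 were high in CL40, RCM1 and CAR1. EPSTI1 was high in several epithelial lines, IFI44L and RSAD2 were detected in 1 line each, and BST2, IFI6 and IFIT5 peaked in lines whose other members were mostly low or near the panel mean. A match is a description of letters and not a bound site. The median deviation of members in CL40 was 3.09 log2 units for the 20 with the element's core and 1.25 for the 10 without, and in RCM1 it was 2.08 and 1.49. The ranges in CL40 overlapped, from 0.06 to 5.64 with it and from 0.73 to 4.21 without, and over the 16 other lines the median correlation with the rest of the list was 0.46 with it and 0.53 without. USP18, MX2, TRIM22, IFIT2, OASL, OAS2, GBP2 and IRF7 had no entry.

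The first question was where each line stood. All 38 members exceeded background in at least 1 line, and 6 did so in all 18 lines (IRF1, ISG15, IFI35, OAS3, PARP9 and DTX3L). Their spread was wide: the median member ran over 5.05 log2 units, against 2.29 for all 13981 detected genes, and 33 of 38 were among the 3592 genes with an SD of 1 log2 unit or more. For each line the deviations of the 38 members from their own panel means were taken, and the median of these is called its position. CL40 stood highest at 2.66 and RCM1 next at 1.78, followed by CAR1 at 0.78, SNUC1 at 0.38 and SW1463 at 0.23. The other 13 lines had negative positions, from −0.14 in MDST8 to −0.72 in NCIH716, −0.84 in OUMS23 and −1.0 in HUTU80. The values of MDST8, LS180 and LS513, close to 0, changed sign under at least 1 other setting. The same median over all detected genes lay between −0.11 and 0.02 in every line.

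In CL40, 35 members lay at least 1 log2 unit above the panel mean and 0 lay that far below it. The share of all detected genes that far above in CL40 was 9.83%, and the share that far below was 6.92%. In RCM1 29 members did so, against 8.65% of all genes, and 1 lay as far below (BST2), against 4.85%. In CAR1 16 lay above, against 11.8% of all genes, and 5 lay below, against 8.83%. Since the members vary more than most genes, the counts were also set beside the 3592 genes with an SD of 1 or more. Of these, 31.5% in CL40, 25.4% in RCM1 and 30.5% in CAR1 lay at least 1 unit above the mean. At the other end HUTU80 had 1 member above, against 9.02% of all detected genes, and 19 below, where 12.3% of all detected genes and 39.5% of the variable genes were below. OUMS23 had 3 above, against 11% of all genes, and 18 below, where 11.8% of all and 33.3% of the variable genes were below. NCIH716 also had 3 above, against 10.7% of all genes, and 18 below, where 11% of all and 29.1% of the variable genes were below. With the panel median as centre the members below numbered 10 in NCIH716 and 11 in OUMS23. In the lines that follow here, members lay on both sides of the panel mean, with more below than above in all but LS180. That excess depended on the centre. With the panel median as centre RKO had 7 above and 5 below, LS513 7 and 4, and LS180 8 and 4. HCT116 then had 4 and 4, and KM12 3 and 3. More still lay below in HT55 (4 and 5), SW948 (4 and 7), COLO320HSR (4 and 8) and SW48 (2 and 7). The counts that follow are from the panel mean. RKO had 7 above, against 8.13% of all genes, and 9 below, against 10.2%. LS180 had 7 above, against 7.32%, and 7 below, against 4.58%. LS513 had 4 above, against 9.23%, and 8 below, against 6.71%, and HT55 had 4 above, against 9.88%, and 10 below, against 8.36%. Among the variable genes the shares above and below were 17.3% and 33.1% in RKO and 23.6% and 13.9% in LS180. They were 27.9% and 20.2% in LS513 and 27.8% and 21.3% in HT55. HCT116 had 4 above (7.62% of all genes) and 7 below (6.5%), and SW948 had 4 above (7.43%) and 12 below (4.95%). COLO320HSR had 4 above (10.2%) and 10 below (11.4%), SW48 had 4 above (7.55%) and 12 below (7.15%), and KM12 had 3 above (5.96%) and 12 below (7.72%). The variable genes gave 20.5% and 20.5% in HCT116, 23.8% and 14.8% in SW948, and 23.5% and 34% in COLO320HSR. In SW48 they gave 18.7% and 23.5%, and in KM12 17.5% and 23.5%. From RKO to KM12, the share of members above was close to this in RKO (18.4%) and lower in the rest. The share of members below was lower than this in RKO (23.7%), HCT116 (18.4%) and COLO320HSR (26.3%), and higher in the rest. The members above background numbered 38 in CL40, 32 in RCM1, 28 in CAR1, 14 in OUMS23 and 12 in HUTU80.

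**Figure D1:**
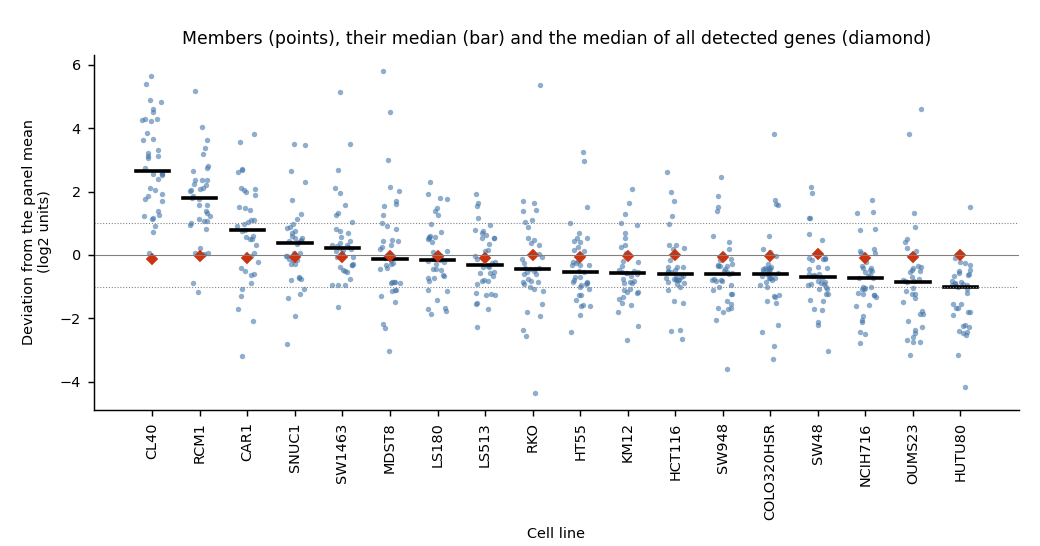
Deviation of each of the 38 members (points) from its panel mean, in log2 units, for the 18 lines ordered by position; the black bar is their median, which is the position of the line, and the diamond is the median over all detected genes. CL40 (2.66) and RCM1 (1.78) stand above the rest, CAR1 (0.78) is next, and HUTU80 (−1.0) is lowest, while single members lie far from the median in most lines.

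CL40 and RCM1 shared most of their high members. Of the 35 in CL40 and the 29 in RCM1, 27 were the same genes, which is 77.1% of the first list and 93.1% of the second. Since 92.1% of all measured members were high in CL40, an overlap of this size follows largely from the counts. It is not a likeness particular to the pair. CL40 exceeded each of the 16 other lines for 26 members and RCM1 did so for 15, with 14 in common. Relative to the median of the 16 other lines the median member was 3.29 log2 units higher in CL40 and 2.12 higher in RCM1. The pair were not alike throughout: 17 members were at least 1 unit higher in CL40, and 4 (IFIT5, HERC5, XAF1 and DTX3L) were at least 1 unit higher in RCM1. The 3 members that CL40 did not hold at 1 unit above the panel mean were IFIT5, DTX3L and SAMD9L.

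**Figure D2:**
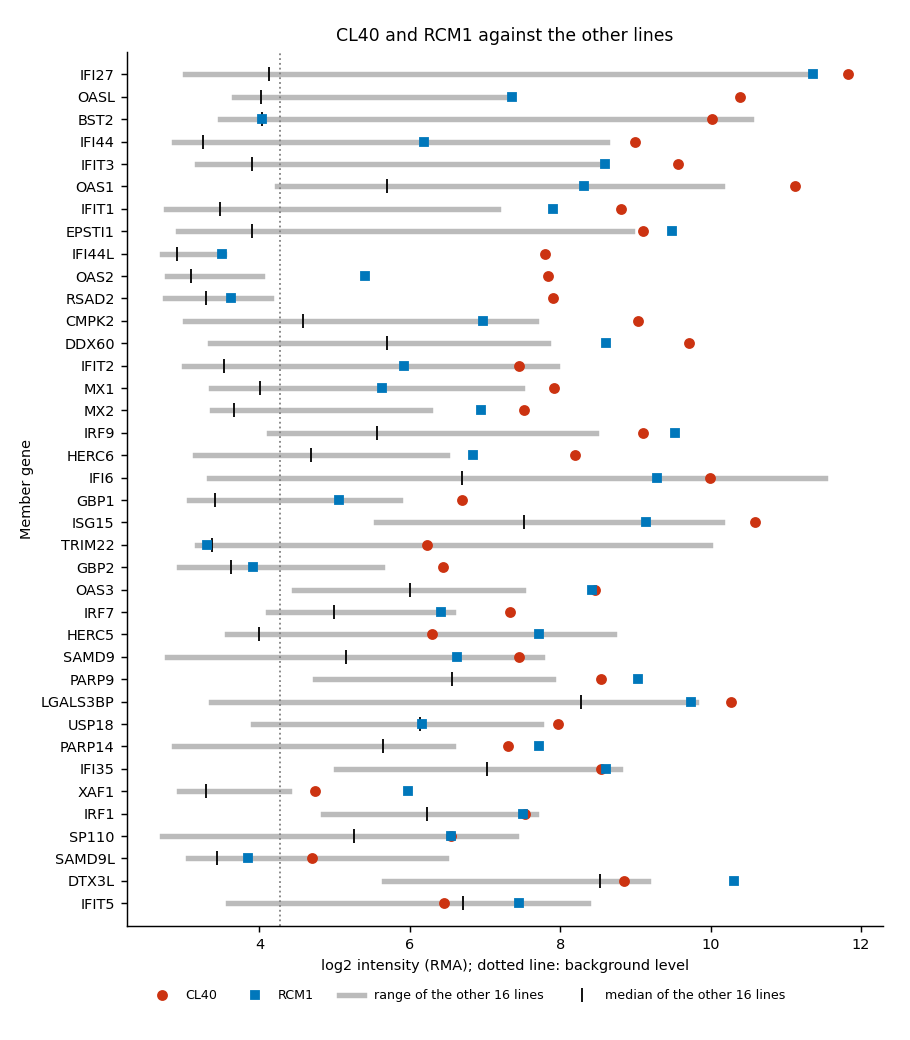
log2 intensity of each member in CL40 (circles) and RCM1 (squares), with the range (bar) and median (tick) of the 16 other lines; the dotted line is the background level of 4.28. CL40 lies above the bar for 26 members and RCM1 for 15; TRIM22 and BST2 are near or at background in RCM1, and IFIT5 in CL40 lies inside the range of the others.

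The transcription factors of the list are described first. IRF9, the DNA-binding partner of STAT2 in that complex, ran from 4.13 in COLO320HSR over a panel median of 5.76 to 9.53 in RCM1. CL40 (9.10), SW1463 (8.48), SNUC1 (8.10) and OUMS23 (7.67) also stood high, so IRF9 was high in a line, OUMS23, whose list position was the second lowest. IRF7, which amplifies the interferon response, ran from 4.12 to 7.33 in CL40 with a median of 5.12, and SW48 (6.57) and RCM1 (6.41) were next. IRF1, the interferon gamma-responsive factor, was detected everywhere, from 4.84 in COLO320HSR to 7.67 in SW1463 (median 6.37). For IRF1 the lines SW1463, CL40 (7.53), RCM1 (7.51) and CAR1 (7.46) were close together.

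ISG15 is a ubiquitin-like protein that HERC5 attaches to other proteins and USP18 removes. ISG15 ran from 5.56 in NCIH716 over a median of 7.61 to 10.60 in CL40, with CAR1 at 10.15 and HCT116 at 9.76. HERC5 was detected in 7 lines and was highest in COLO320HSR at 8.72, then RCM1 (7.71), HCT116 (7.53), CAR1 (6.44) and CL40 (6.30), against a median of 4.01, which is under background. USP18, which also blunts signalling at the interferon receptor, ran from 3.92 in MDST8 to 7.97 in CL40 (median 6.29). It was nearly as high in KM12 (7.74), COLO320HSR (7.69) and LS180 (7.51), lines with negative positions, and was 6.17 in RCM1. The position of LS180 was close to 0, and its sign changed with the centre. HERC6, a relative of HERC5, was highest in CL40 (8.20) with a median of 4.83, and RCM1 (6.84), CAR1 (6.50) and RKO (6.46) followed. The enzyme, the modifier and the protease were therefore high in partly different lines.

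The IFIT proteins bind foreign RNA and hinder its translation, and their genes lie side by side on chromosome 10. IFIT1 was at most 4.53 in 12 of the lines and reached 8.81 in CL40, 7.91 in RCM1 and 7.17 in CAR1, with COLO320HSR (6.14), MDST8 (6.10) and SNUC1 (5.14) between (lowest 2.76, median 3.50). IFIT3 was highest in the same 3 lines, with 9.57 in CL40, 8.59 in RCM1, 8.55 in CAR1, followed by 7.99 in MDST8 (lowest 3.17, median 3.95). COLO320HSR (4.13) was at background for IFIT3, and SW1463 (5.28) and RKO (4.90) were above it. IFIT2 was highest in CAR1 at 7.95, then CL40 (7.45) and RCM1 (5.93), and was at or under background in the other 15 lines (lowest 3.0, median 3.56). IFIT5 differed from its neighbours. It was highest in HCT116 (8.37), then MDST8 (7.98), CAR1 (7.87) and RKO (7.80), with a median of 6.71 and 6.45 in CL40, and was lowest in SNUC1 (3.59).

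The OAS genes encode synthetases that sense double-stranded RNA and activate an RNA-degrading enzyme; OASL lacks that activity. OAS1 ran from 4.23 in OUMS23 over a median of 6.77 to 11.12 in CL40, with HT55 (10.16) and SNUC1 (9.57) next and RCM1 (8.31) behind SW948 (8.76), LS180 (8.70) and LS513 (8.46). OAS2 was detected in 2 lines, CL40 (7.84) and RCM1 (5.41), and its median was 3.10 and its lowest value 2.76. OAS3 was detected in all lines, from 4.46 in HUTU80 over 6.12 to 8.46 in CL40 and 8.42 in RCM1. OASL reached 10.40 in CL40, 7.35 in RCM1 and 7.29 in SNUC1 (lowest 3.67, median 4.19). CAR1, which followed RCM1 over all members, was not high for OAS1 (5.61) and had OAS2 and OASL (3.04 and 3.92) at background.

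MX1 and MX2 are dynamin-like GTPases that trap viral particles, and GBP1 and GBP2 are GTPases induced most by interferon gamma. MX1 ran from 3.36 in HCT116 over a median of 4.16 to 7.92 in CL40, with SW1463 (7.50), CAR1 (6.85) and RKO (6.45) ahead of RCM1 (5.63). MX2 was highest in CL40 (7.52), RCM1 (6.94) and SW1463 (6.26), with a lowest value of 3.37 and a median of 3.69, and CAR1 (3.41) was at background. GBP1 reached 6.70 in CL40, 5.87 in COLO320HSR and 5.83 in MDST8 (lowest 3.06, median 3.49). GBP2 reached 6.45 in CL40, 5.63 in NCIH716 and 5.55 in LS513 (lowest 2.93, median 3.66), and was 3.91 in RCM1. For the GBP pair RCM1 was thus no more than 5.06.

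The IFI genes are named for their induction, and the function of several is less well known. IFI27, a mitochondrial and nuclear envelope protein, had the widest spread of all members (SD 3.27, n = 18). It was 11.83 in CL40, 11.36 in RCM1, 11.32 in SW1463 and 9.68 in SNUC1, 8.65 in SW948, and at background in 8 lines, CAR1 among them (3.02); the median was 4.67. IFI6, which protects cells from death, was highest in OUMS23 at 11.52, above CL40 (9.99) and RCM1 (9.29), and lowest in SW948 at 3.33 (median 6.92). IFI35 was detected in all lines and was highest in SW948 (8.79), RCM1 (8.61), KM12 (8.57) and CL40 (8.54), with 5.01 in OUMS23 (median 7.19). IFI44 was 9.0 in CL40, 8.62 in MDST8, 6.19 in RCM1 and 4.64 in SNUC1, and at background elsewhere (lowest 2.87, median 3.30). Its neighbour IFI44L was above background in CL40 alone (7.80), where the next line was MDST8 at 3.53 (lowest 2.70, median 2.94).

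RSAD2 (viperin), which makes a chain-terminating nucleotide, and the adjacent nucleotide kinase gene CMPK2 lie on chromosome 2. RSAD2 was above background in CL40 alone (7.90), with CAR1 next at 4.16 (lowest 2.75, median 3.34). CMPK2 was also highest in CL40 (9.04) but was detected in 12 lines, among them LS180 (7.67), SW48 (7.54), CAR1 (7.28), RCM1 (6.97) and RKO (6.27), from a lowest value of 3.01 and over a median of 4.87.

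PARP9 and DTX3L form a complex of an ADP-ribosyltransferase-like protein and a ubiquitin ligase, and PARP14 is a related enzyme; all 3 genes lie together on chromosome 3. In RCM1 each stood highest: PARP9 at 9.04 (lowest 4.74, median 6.77), DTX3L at 10.31 (lowest 5.65, median 8.54) and PARP14 at 7.72 (lowest 2.86, median 5.76). In CL40 PARP9 was 8.55 and PARP14 7.31, but DTX3L at 8.84 was near the panel median. NCIH716 and HUTU80 held the low end of DTX3L (5.66 and 5.65) and PARP9 (4.74 and 5.14).

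SAMD9 and SAMD9L, neighbouring genes of restriction factors that act against poxviruses, were highest in CAR1. SAMD9 was 7.76 there, 7.46 in CL40, 7.21 in MDST8 and 6.63 in RCM1 (lowest 2.77, median 5.22). SAMD9L was 6.48 in CAR1, 5.06 in MDST8 and 4.70 in CL40, and at background in the other 15 lines, RCM1 (3.85) included (lowest 3.06, median 3.47).

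The remaining effectors held the clearest exceptions. DDX60, a helicase-like protein of RNA sensing, followed the list most closely, with 9.72 in CL40, 8.61 in RCM1, 7.84 in CAR1 and 7.16 in SNUC1 (lowest 3.35, median 5.75). XAF1, a pro-apoptotic protein, was highest in RCM1 (5.97), ahead of CL40 (4.74), CAR1 (4.40) and SW1463 (4.34), with all others at background (lowest 2.92, median 3.31). SP110, a nuclear body protein, was highest in CAR1 (7.41) and MDST8 (7.32), and CL40 and RCM1 were both at 6.54 (lowest 2.71, median 5.42). TRIM22, a ubiquitin ligase, was 9.99 in MDST8, then 6.24 in CL40, 6.12 in LS513 and 5.66 in LS180; RCM1 at 3.30 was at background, and so was the median of 3.37 (lowest 3.17).

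BST2 (tetherin), which holds budding virus at the cell surface, was highest in RKO at 10.54. CL40 (10.02), OUMS23 (9.01) and HUTU80 (6.71) followed, and RCM1 (4.03) and CAR1 (3.48) were at background (median 4.05). It was the only member of HUTU80 at least 1 log2 unit above the panel mean. EPSTI1, named for induction in epithelium by stromal cells, was 9.49 in RCM1, 9.11 in CL40, 8.96 in SW1463, 8.92 in SNUC1 and 8.44 in HT55 (lowest 2.92, median 4.63). LGALS3BP, a secreted glycoprotein that binds galectins, was high in most lines, up to 10.27 in CL40 with a median of 8.84, and low in RKO (3.35), HUTU80 (3.54), COLO320HSR (4.45), OUMS23 (4.57) and CAR1 (5.64).

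**Figure D3:**
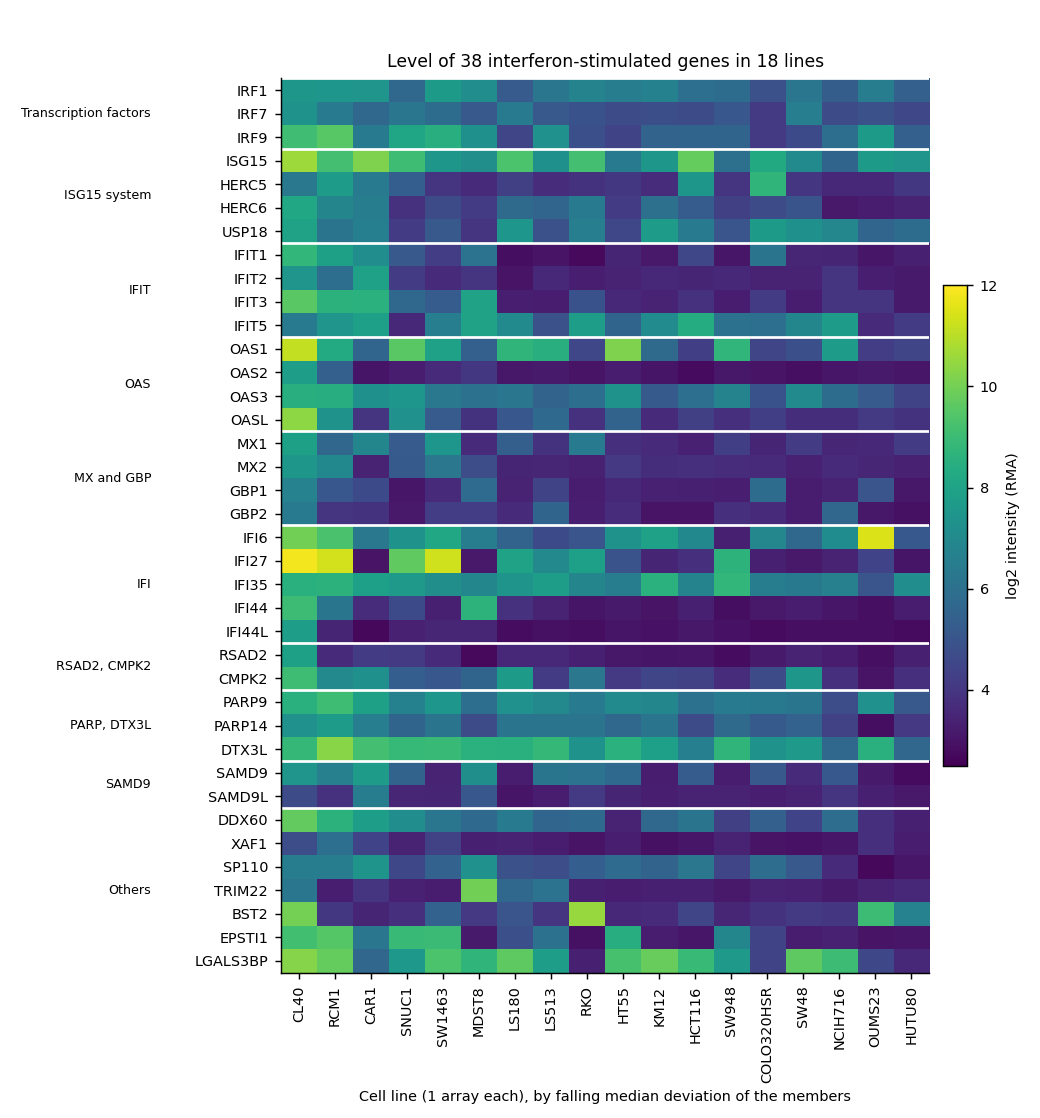
log2 intensity of all 38 members (rows, grouped by role) in the 18 lines (columns, ordered by position), each cell coloured by its level. The CL40 and RCM1 columns are high for most rows, and single bright cells elsewhere mark IFI6 in OUMS23, BST2 in RKO and OUMS23, HERC5 in COLO320HSR and TRIM22 in MDST8.

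Below CL40 and RCM1 the lines were high for partly different members. The 16 high members of CAR1 were IRF1, ISG15, IFIT1, IFIT2, IFIT3, IFIT5, MX1, DDX60, HERC5, HERC6, CMPK2, PARP9, DTX3L, SP110, SAMD9 and SAMD9L. Its 5 low members were IFI27, OAS1, OASL, BST2 and LGALS3BP. SNUC1 was high for 7 members, where 8.68% of all detected genes were (IRF9, IFI27, OAS1, OAS3, OASL, DDX60 and EPSTI1), and low for 5, where 7.12% were. It shared 1 high member, DDX60, with CAR1. SW1463 was high for 9, where 7.83% of all genes were, and low for 1, SAMD9, where 6% were, and 4 of its high members (IRF9, IFI27, OAS1 and EPSTI1) were also high in SNUC1. MDST8 was high for 10, where 12.9% of all genes were, and low for 8, where 10.8% were, and shared 6 high members with CAR1 and 0 with SNUC1. Among the variable genes the share that far above was 25% in SNUC1, 23% in SW1463 and 30.3% in MDST8, against 18.4%, 23.7% and 26.3% of the members, so these counts were close to that share or below it. With the panel median as centre SNUC1 had 15 high members. These are counts over single arrays, and the differences between the lines' lists were not tested. The number of members that lists so short have in common depends on their lengths. No overlap over all detected genes is given beside it, so small overlaps are not read as separate patterns.

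The second question was how far the members moved together over the panel, and how much of that rested on CL40 and RCM1. All correlations here are descriptions over lines; the values of a line share 1 array, and no p is given. Over 18 lines the mean Pearson r between members was 0.40 (703 pairs), with 38.5% of pairs above 0.5 and 6.26% below 0. The mean over all pairs of the 13981 detected genes was 0.004. Without CL40 and RCM1, where 35 members remained above background, the mean r was 0.17 (595 pairs), with 13.3% of pairs above 0.5 and 28.1% below 0. Without CL40 alone it was 0.27 and without RCM1 alone 0.38, and without CL40, RCM1 and CAR1 it was 0.13. Leaving out HUTU80, the line with the lowest position, lowered it about as much as RCM1 or CAR1 did. It was 0.38 without HUTU80 alone and 0.13 without CL40, RCM1 and HUTU80. The first principal component of the standardised members held 45.7% of their variance over 18 lines and 26.1% over 16.

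Leaving out the same lines within each medium also lowered the mean r. CL40 and RCM1 had the highest positions, so leaving them out takes away high values that the members share. The drop within a medium repeats that removal and is no separate check. Among the 10 DMEM/F-12 lines the mean r was 0.51, and 0.25 without CL40. Among the 8 RPMI 1640 lines it was 0.33, and 0.10 without RCM1. In these smaller sets a member was used where it exceeded background in at least 1 of the lines.

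The correlation of each member with the mean of the others had a median of 0.65 over 18 lines and 0.47 over 16. Over 18 lines 30 members exceeded 0.5, where 3.5% of genes outside the list did so against the list mean. Over 16 lines 18 did, where 4.96% of other genes did. DDX60 had the highest value over 18 lines (0.88), and IFIT3 (0.75) and DDX60 (0.74) the highest over 16. USP18 had the lowest in both, 0.13 and −0.34. BST2 went from 0.17 to −0.33 and IFI6 from 0.38 to −0.05, and these 3 were the only negative values over 16 lines. RSAD2, IFI44L and OAS2 were at background in the 16 lines, so their values there (0.54, 0.42 and 0.44) describe signal that is not detected. OASL went from 0.80 to 0.34. DTX3L (0.61 and 0.68), SP110 (0.61 and 0.65), SAMD9L (0.50 and 0.59) and TRIM22 (0.29 and 0.30) did not drop.

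**Figure D4:**
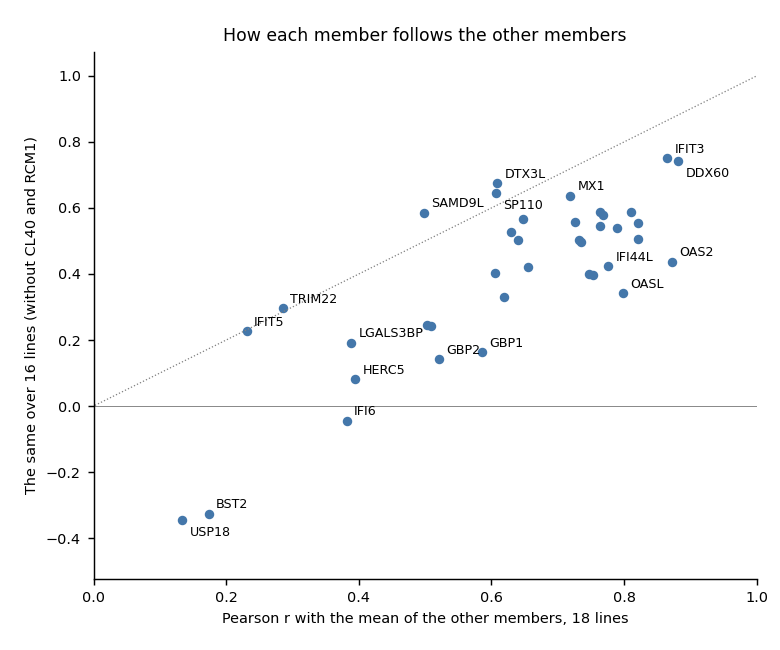
Correlation of each member with the mean of the other members over 18 lines (x axis) and over 16 lines without CL40 and RCM1 (y axis); the diagonal marks equal values. Most members lie under the diagonal, and USP18, BST2 and IFI6 lie below 0 on the y axis at −0.34, −0.33 and −0.05.

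Without CL40 and RCM1 the strongest pairs were IFIT3 with SAMD9L (r = 0.89), IFIT2 with SAMD9L (0.88), IFI44 with TRIM22 (0.88) and PARP9 with DTX3L (0.86), over 16 lines. Among these lines IFIT2 was above background in CAR1 alone, SAMD9L in CAR1 and MDST8, and IFI44 in MDST8 and SNUC1. The r values of pairs with these genes therefore rest largely on CAR1 and MDST8, and the other lines add mostly signal that is not detected. The most negative were BST2 with LGALS3BP (−0.63) and IRF9 with USP18 (−0.62). By role, the mean r was taken over the members above background in at least 1 of the 16 lines, which left out OAS2, IFI44L and RSAD2. Over 18 and 16 lines it was 0.74 and 0.73 for SAMD9 with SAMD9L, 0.72 and 0.61 for PARP9, PARP14 and DTX3L, and 0.57 and 0.51 for the 4 IFIT genes. It was 0.69 and 0.54 for OAS1, OAS3 and OASL, 0.49 and 0.39 for the 4 genes around ISG15, and 0.53 and 0.31 for the 3 transcription factors. For the 4 GTPases it was 0.43 and 0.08, for 4 IFI genes 0.25 and −0.09, and for the 7 remaining effectors 0.22 and 0.06. The differences between these groups were not tested. Several of the groups are also clusters in the genome. Of the 38 members 22 formed 13 pairs with at most 2 protein-coding genes between them in the RefSeq order, and their median r was 0.66 over 18 lines. Of these pairs 10 had both members above background in at least 1 of the 16 lines, and their median r was 0.63 and 0.51. Neighbours could nevertheless differ, and IFIT1 with IFIT5 had 0.25 over 18 lines and 0.23 over 16.

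The members were then set beside the epithelial markers, because CL40 had the highest position for both lists. The epithelial position was 2.80 in CL40 and 2.32 in RCM1, and its correlation with the position of the members was 0.43 over 18 lines and 0.26 over 16. SNUC1 (2.70) and SW1463 (2.29) were high for the epithelial markers with small positive positions for the members, and HT55 (2.62) and LS513 (2.47) were as high with negative ones. With the panel median as centre the members' positions were −0.003 in HT55 and 0.006 in LS513, against 0.44 in SNUC1 and 0.48 in SW1463. CAR1 at −2.12 was low for the epithelial markers and next after RCM1 for the members. Over 16 lines OAS1 (r = 0.84), EPSTI1 (0.69), LGALS3BP (0.68), OASL (0.60) and IFI27 (0.58) followed the epithelial markers most, and BST2 and GBP1 (both −0.46) were lowest. Of the members, 11 (28.9%) exceeded 0.5 over 18 lines and 7 (18.4%) over 16, where 11% of other detected genes did in either case. The part of epithelial differentiation in the members' levels was not tested.

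**Figure D5:**
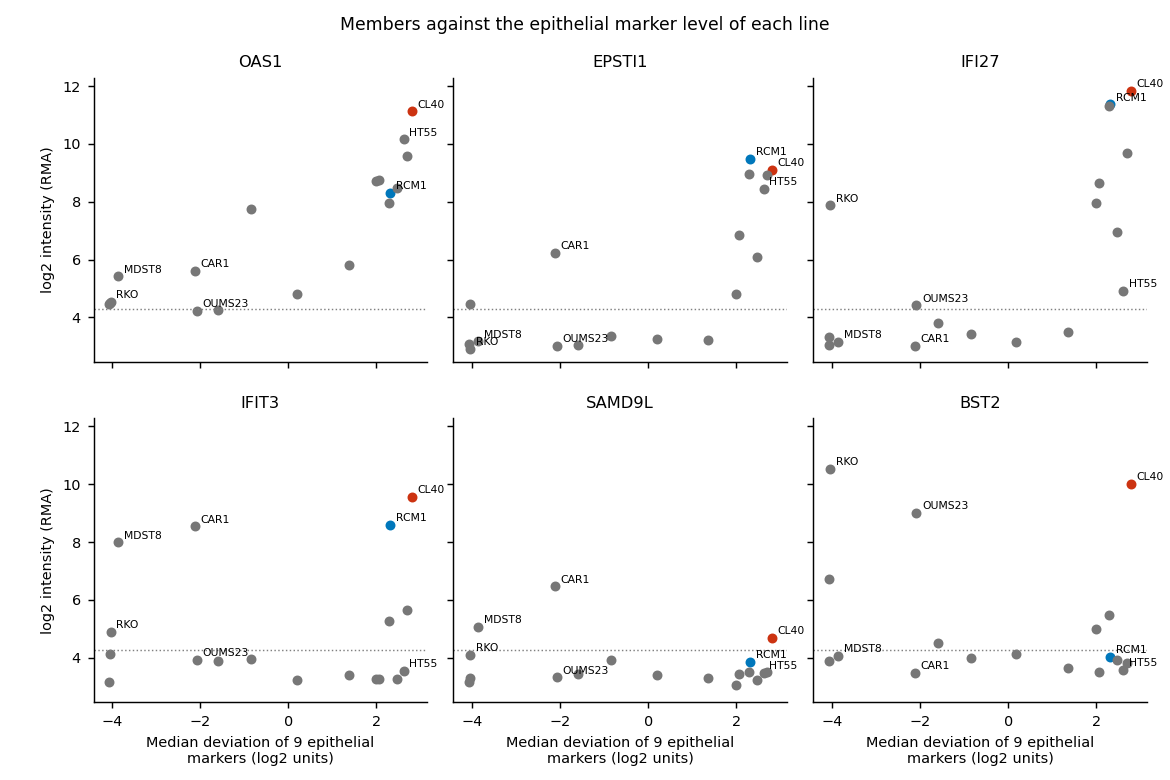
log2 intensity of 6 members (y axis) against the median deviation of 9 colon epithelium markers in each of the 18 lines (x axis, log2 units), with CL40 and RCM1 in colour and the background level of 4.28 dotted. OAS1, EPSTI1 and IFI27 are high mostly among the lines at the right, while IFIT3 and SAMD9L are also high in CAR1 (8.55 and 6.48) and MDST8 (7.99 and 5.06) at the left, and BST2 in RKO (10.54) and OUMS23 (9.01).

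Upstream of the members, the receptors, kinases and feedback inhibitors varied less. All 11 measured genes of this list exceeded background in at least 1 line and 7 did so in all lines, and its position was 0.20 in CL40 and 0.24 in RCM1, with the highest value in CAR1 (0.55). IFNAR1, a chain of the type I receptor, ran from 5.33 in OUMS23 over 6.77 to 7.94 in RKO. IFNLR1, the chain particular to the type III receptor, ran from 2.74 in HUTU80 over 6.37 to 7.24 in SW1463. SOCS3, a feedback inhibitor of JAK kinases, ran from 2.47 in NCIH716 over 3.84 to 6.85 in HCT116, with CL40 next at 6.57. IFNLR1 was at background in 3 lines, HUTU80, NCIH716 (3.04) and SNUC1 (4.2), of which SNUC1 had a positive position for the members.

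Of 9 measured interferon genes 8 were at background in every line. IFNL1, a type III interferon, was 4.68 in CL40 and at most 3.25 in the other 17 lines (lowest 2.80, median 3.08). That value is just above the background level and lies under a stricter level of 5 that was added after the data were seen. It is given as a low signal on 1 array. Of the 14 sensor and adaptor genes, which detect foreign nucleic acids and induce interferon, 5 were at least 1 unit above the panel mean in CL40 and 0 in RCM1. Of all detected genes 9.83% in CL40 and 8.65% in RCM1 lay that far above, and of the variable genes 31.5% and 25.4%. The position of the sensor list correlated with that of the members at r = 0.91 over 18 lines and 0.69 over 16. The basis of this correlation was not tested, and it gives no direction between the lists. The 3 most variable sensors were above their panel means in CL40 by 1 unit or more but peaked elsewhere: IFI16 was 8.84 in CL40 and highest in RKO (10.73), IFIH1 was 8.73 and highest in HUTU80 (11.59), and STING1 was 6.08 and highest in LS513 (7.70). RIGI (7.15) and DHX58 (5.54), named after their values were seen, were highest in CL40 and next in RCM1 (6.25 and 4.62).

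Other genes that interferons induce were counted in the same way. The shares beside these counts were again 9.83% of all detected genes and 31.5% of the variable genes in CL40. In RCM1 they were 8.65% and 25.4%. Of 13 measured genes of MHC class I presentation, 9 were at least 1 unit above the panel mean in CL40 and 6 in RCM1, and their position correlated with that of the members at 0.61 over 18 lines and 0.52 over 16. The highest position was that of LS513 (1.93), a line with −0.30 for the members. All 3 IFITM genes, which block virus entry, were high in CL40 and 1 in RCM1, and their highest position was that of OUMS23 (1.69). With so few genes, the count of 1 in RCM1 was near the share of the variable genes. IFITM1 ran from 3.59 in NCIH716 over a median of 8.38 to 11.75 in SW1463. Of 4 measured T cell-attracting chemokines, 3 were high in CL40 and not in RCM1, and CXCL9 was at background in every line. CXCL11 was 8.73 in CL40 and 2.95 in RCM1 (lowest 2.83, median 3.01), CXCL10 was 6.98 and 3.51 (lowest 3.05, median 3.44), and CCL5 was 7.23 and 4.13 (lowest 3.34, median 3.72). CAR1 was the second line for CXCL11 (5.97) and CXCL10 (6.28). Each value comes from 1 array, so the difference between CL40 and RCM1 has no replicate check.

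The medium was the only grouping the labels gave. With limma over all 13981 detected genes, 0 of 38 members and 0 genes in all (0%) had a Benjamini-Hochberg adjusted p under 0.05, comparing 10 DMEM/F-12 with 8 RPMI 1640 lines. At an unadjusted p under 0.05 there were 2 members and 352 genes (2.52%). BST2 was higher in DMEM/F-12 by 2.16 log2 units (SE 0.93, adjusted p = 0.999 by limma), with means of 6.15 ± 2.78 (SD, n = 10) and 3.98 ± 0.24 (SD, n = 8). MX1 was higher by 1.35 (SE 0.61, adjusted p = 0.999 by limma), with means of 5.41 ± 1.64 (SD, n = 10) and 4.05 ± 0.87 (SD, n = 8). The groups overlapped for both genes: BST2 ran from 3.48 to 10.54 in DMEM/F-12 and from 3.66 to 4.5 in RPMI 1640, and MX1 from 3.58 to 7.92 and from 3.36 to 5.63. The difference was positive for 21 of 38 members, with a median of 0.15 against −0.004 over all detected genes. That direction was not stable: without CL40 13 of 36 members were higher in DMEM/F-12, with a median of −0.25, and the median was also negative without CAR1 (−0.05), HCT116 (−0.04) or NCIH716 (−0.07). Medium is tied to the lines, since each line was grown in 1 medium, so the medium and the identity of the lines cannot be told apart.

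For most members with more than 1 probe set the pattern over lines depended little on the choice, but the highest line could differ. Of 20 members with several single-gene probe sets, 13 had a correlation above 0.9 between the brightest pair over 18 lines, and the median was 0.93. OAS3 (0.46), HERC6 (−0.04) and PARP14 (−0.03) fell under 0.5. For HERC6 and PARP14 the dimmer probe set exceeded background in 0 lines, and for OAS3 in 4. On the dimmer probe set the highest line was CL40 for IRF1 (6.04) and PARP9 (6.22). It was MDST8 for IFIT5 (7.09) and SP110 (7.45), and SW1463 for EPSTI1 (8.34). For GBP2 that probe set exceeded background in 1 line, LS513 (4.30), and so not in CL40. For IFI44 it did so in CL40 alone (4.95), and so not in MDST8.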

How the data were processed

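The deposited table held log2 intensities of 54613 probe sets in 18 arrays, which the authors made, per the submitters' processing notes, by RMA with affy. Their versions were not given in the sources used here. RMA corrects background and normalises between arrays together, so that dim probe sets are compressed towards a floor. The values were used as deposited. Probe sets were named through the platform annotation: 40914 were paired with a single gene and kept, and 864 with several genes and 12835 without a name were left out. Of those kept, 40858 had an ID in the RefSeq table of GRCh38.p14, which gave current names and gene order. The brightest probe set on average stood for a gene. Positions, deviations, Pearson correlations and promoter matches were computed in Python 3.11.15 with numpy 2.4.6 and pandas 2.3.3. The media were compared in R 4.3.3 with limma 3.58.1 (lmFit, eBayes with trend) over all genes above background in at least 1 line. Replicates were not given, so p-values measure the spread between lines.

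The members and lists were chosen with earlier results of these data known. Genes named were all members, the 3 most variable detected genes of each related list, and the 10 genes outside the list most correlated with the line positions; others are marked. The list of genes restricted to other tissues came from general knowledge and was not checked gene by gene. Alternatives were other probe set rules, centres, thresholds, background levels, filters, limma settings, Spearman correlation, array shifts and leaving out lines. The scripts were tested on simulated data.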

Additional observations from a re-analysis of the deposited data

Results flagged for a closer look

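Within each medium (10 or 8 lines) a highest or lowest line was singled out where its gap to the next exceeded Dixon's 95% critical value. Chance flags about 1 in 20 groups; here 33 of 150 tests were flagged, and 14 of 76 among members. Since the genes were chosen with the data known and share the same arrays, these counts are descriptions.

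The position of the members was set apart in CL40 (2.66, next 0.78) among the DMEM/F-12 lines and in RCM1 (1.78, next 0.38) among the RPMI 1640 lines. Single members were high and apart in CL40: IFI44 at 9.0, IFI44L at 7.80, OAS2 at 7.84, OASL at 10.40, GBP1 at 6.70, GBP2 at 6.45 and RSAD2 at 7.90. In RCM1 they were IFIT2 at 5.93 and XAF1 at 5.97. For GBP2 the dimmer probe set was at background in CL40. SAMD9L was apart in CAR1 (6.48) and, among the RPMI 1640 lines, in MDST8 (5.06), where TRIM22 was too (9.99). On the low side DTX3L was apart in HUTU80 (5.65) and LGALS3BP in COLO320HSR (4.45).

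Among related genes CXCL11 (8.73), CCL5 (7.23), IFNL1 (4.68) and DHX58 (5.54) were high and apart in CL40, and CCL5 was also apart in SNUC1 (5.44). IFNLR1 was low and apart in HUTU80 (2.74). Of the genes whose pattern was most like that of the members, PHACTR3 (6.93), DPP10-AS1 (7.78) and HELZ2 (5.67) were apart in CL40. In RCM1 they were MMP7 (10.87), PHACTR3 (7.93), DPP10-AS1 (6.75), HLA-DQB1 (6.02) and FGD6 (7.28). NMRAL2P (6.40), RCAN1 (11.90) and CCDC9B (10.32) were high and apart in CAR1.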

How the results depend on the processing

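Of 90 alternative values for the positions of the 18 lines, 88 stayed within 0.53 log2 units of those reported, and 5 changed sign (LS513, LS180 and MDST8, all close to 0). The position of RCM1 was 1.24 with the mean of all probe sets, and that of NCIH716 was −0.15 with the panel median as centre. With a threshold of 2 log2 units, 17 members in RCM1 and 8 in CAR1 were above the panel mean. The mean correlation of members was 0.17 without CL40 and RCM1. Leaving out each line in turn gave 0.27 (without CL40) to 0.43 (without MDST8). Over the 16 lines it gave 0.13 (without CAR1 or HUTU80) to 0.18. No member passed the medium comparison under any of 25 alternatives; without CL40 13 of 36 members were higher in DMEM/F-12, and the median difference was −0.25. Counts of members below the panel mean moved by over 1.5 times in 48 of 108 alternatives: in 15 of 18 lines with the panel median as centre, in 15 and 17 with thresholds of 0.5 and 2 log2 units, and in 1 with the mean of all probe sets. The background level matters for dim members: a level of 5 log2 units left 36 of 38 members above it in CL40 and 9 in HUTU80, and the 99th percentile (8.43) left 18 and 0, that percentile being raised by probe sets with signal. No paired analysis was possible because the labels carry no replicate numbers.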

Other observations

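Genes outside the list whose levels were most like the position of the members were sought among genes with a range of at least 1 log2 unit. Over 18 lines (13103 genes) they were MMP7, a matrix protease of epithelia (r = 0.87), PHACTR3 (0.87), DPP10-AS1 (0.87), HELZ2, a helicase that interferon induces (0.85), UBA7, the enzyme that activates ISG15 (0.85), HLA-DQB1, a class II antigen-presenting chain (0.84), FGD6 (0.83), DHX58 (0.82), SFTA2 (0.81) and APOL6 (0.80). MMP7 was 10.89 in CAR1, 10.87 in RCM1 and 10.25 in CL40, and its panel median of 3.37 was under background. Of these 10 genes 5 were highest in CL40, 4 in RCM1 and 1 in CAR1.

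Over the 16 lines without CL40 and RCM1 (12920 genes) none of these 10 was among the closest. The closest were NMRAL2P (r = 0.84), a pseudogene whose probe set may share sequence with its relatives, LITATS1 (0.83), RCAN1, a calcineurin inhibitor (0.81), STAT3 (0.81), the protease inhibitor SERPINA1 (0.81), TNIP1, an inhibitor of NF-kappaB signalling (0.80), GBP3 (0.80), CCDC9B (0.80), TNFRSF14 (0.79) and XDH, which makes uric acid (0.79). All but TNFRSF14 (SW1463, 6.12) were highest in CAR1 among these 16 lines, for example STAT3 at 10.17 and SERPINA1 at 12.32. These are the highest of many correlations over lines that share arrays, and are given as descriptions.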
